A study of Mus musculus with 18 samples.

Results

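This report follows 8 genes in cultured mouse embryonic fibroblasts (MEF): the CCN family members Ccn2 (formerly Ctgf), Ccn1 (Cyr61), Ccn4 (Wisp1) and Ccn5 (Wisp2), and the YAP targets Ankrd1, Amotl2, Axl and Lats2. They were chosen by gene name, with earlier results of these data known, from the 55450 genes of the deposited table, and all 8 were found. Poly(A) RNA was sequenced from 18 libraries in 6 groups of 3, in which MEF carried pcDNA3 with no insert (the empty vector) or a plasmid for miR-29b under the Col1a1 or the CMV promoter (Col1a1-miR-29b and CMV-miR-29b). Each vector was examined with no treatment and with TGF-β for 24 h, begun 6 h after transfection. In the Col1a1-miR-29b plasmid a rat Col1a1 promoter drives human miR-29b-1, with EGFP in the same unit and an SV40-driven mRFP1 as a second reporter, and in the CMV-miR-29b plasmid the promoter is that of CMV. The empty vector holds neither the miRNA nor these reporters, so promoter, miRNA and reporters cannot be told apart in a comparison with it. Plasmids were dosed by moles, with a larger mass of DNA for Col1a1-miR-29b than for CMV-miR-29b. The mass of plasmid DNA cannot be told apart from the vector either. Transfection was transient, and the cells were MEF from the American Type Culture Collection. The study's methods give 3 repeated experiments for each group, and nothing in the sources says whether these were separate cultures, so p-values measure the spread between these libraries, which may be technical.

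CCN proteins are secreted matricellular proteins that bind integrins and matrix and act on adhesion, growth and fibrosis. YAP and TAZ are transcriptional co-activators that the Hippo kinases MST and LATS hold in the cytoplasm. When the kinases are inactive, YAP and TAZ enter the nucleus and bind TEAD factors at target genes such as Ccn1, Ccn2 and Ankrd1. TGF-β acts through receptor kinases and Smad factors and also raises Ccn2, a gene known for its part in fibroblast activation.

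Total counts per library ran from 65898017 to 80332633 (median, 74155860), and a filter on low counts left 21161 genes, all 8 members among them. Values are given as CPM, counts scaled to a common library size with TMM factors, and differences as log2 fold changes with their standard error (SE) and a p-value from edgeR's quasi-likelihood test, adjusted by Benjamini-Hochberg over all genes tested. A difference was called when that adjusted p was under 0.05. The table's entry for Mir29b-1, the miRNA gene that the plasmids carry in its human form, had 0 counts in the empty vector libraries. In Col1a1-miR-29b libraries it had 0 to 1 counts untreated and 2 to 6 with TGF-β. In CMV-miR-29b libraries it had 110 to 309 untreated and 203 to 293 with TGF-β. The libraries were made from poly(A) RNA, so these counts do not measure the mature miRNA. The 10 fibroblast markers summed to 4201 to 4628 CPM in empty vector cells and to 6768 to 7747 CPM with TGF-β. Fn1 had 96806 counts or more in each library and Thy1 8 or fewer. Of the 9 tested, 4 were called higher with TGF-β and 1 lower, where 820 and 425 of 21161 genes were. Col1a1 had 942 to 1072 CPM untreated and 2183 to 2497 CPM treated, while S100a4 had 109 to 128 and 87.9 to 106 CPM. The sum thus includes genes that respond to TGF-β. Markers of endothelium summed to at most 3.03 CPM and those of skeletal muscle to at most 0.852 CPM. The 4 immune markers summed to 8.75 to 13.4 CPM, nearly all of it Cd68, while Ptprc and Cd3e reached 25 and 2 counts at most. The 5 epithelial markers summed to 68.6 to 83.6 CPM in empty vector cells and to 39.7 to 50.9 CPM with TGF-β, nearly all of it Krt19, with Epcam at 4 counts or fewer. Their part in the results below was not tested, and in bulk RNA fewer cells of a type and less RNA per cell cannot be told apart.

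TEAD factors recognise the letters GGAATG, or CATTCC on the other strand, and 5 of the members, Ccn1, Ankrd1, Amotl2, Axl and Lats2, have an entry in the RefSeq table of promoter windows, from 250 bases before to 50 bases after a transcription start. All 5 held these letters in a window, against 14.7% of 32851 windows and 16.6% of 27025 genes. These genes are listed or known as YAP targets, so this contrast is a description and not a test. Ccn2, Ccn4 and Ccn5, which TGF-β raised under every vector, have no entry. Ankrd1 held them at 2 places, which 1.4% of all windows did. The windows of a YAP target called in comparisons of TGF-β and of vectors (Amotl2) and of a pair called in none (Ccn1 and Ankrd1) are printed from GRCm38, 5′ to 3′ along the gene, with the TEAD letters in capitals.
Ccn1 promoter, chr3:145649936-145650235, minus strand: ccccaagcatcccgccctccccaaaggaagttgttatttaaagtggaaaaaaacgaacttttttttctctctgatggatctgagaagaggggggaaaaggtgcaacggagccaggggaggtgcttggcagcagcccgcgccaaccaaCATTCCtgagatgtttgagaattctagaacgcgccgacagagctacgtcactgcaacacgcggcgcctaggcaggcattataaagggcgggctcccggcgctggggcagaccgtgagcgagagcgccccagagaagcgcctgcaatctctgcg
Ankrd1 promoter, chr19:36119795-36120094, minus strand: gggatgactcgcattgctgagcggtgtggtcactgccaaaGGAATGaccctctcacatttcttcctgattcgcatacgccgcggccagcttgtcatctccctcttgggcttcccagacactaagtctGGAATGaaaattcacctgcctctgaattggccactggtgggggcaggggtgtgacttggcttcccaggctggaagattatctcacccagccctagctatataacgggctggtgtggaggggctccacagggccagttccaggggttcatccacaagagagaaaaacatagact
Amotl2 promoter, chr9:102717554-102717853, plus strand: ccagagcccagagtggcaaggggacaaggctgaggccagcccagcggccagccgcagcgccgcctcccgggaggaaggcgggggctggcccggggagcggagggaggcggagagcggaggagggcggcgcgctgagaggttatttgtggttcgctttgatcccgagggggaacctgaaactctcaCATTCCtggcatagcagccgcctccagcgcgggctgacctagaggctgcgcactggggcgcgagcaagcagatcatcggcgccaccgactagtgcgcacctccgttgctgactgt
The TEAD letters began 103 bases before the start in Ccn1, 210 and 123 bases before it in Ankrd1, 65 bases before it in Amotl2 and 233 bases before it in Axl. In Lats2 they lay 5 bases after the first of its starts, and its other window had none. The Amotl2 window, from 102717554, lies inside the gene as annotated, which begins at 102716672. The stretch before that beginning was not searched. Ccn1 was the single member of the 5 with the TATA letters TATAAA, 25 bases before its start, which 8.3% of all windows held. Only these exact letters were sought, so a window without them is not shown to lack a TATA element. The letters of AP-1 (TGANTCA, which reads alike on either strand) were in 0 of the 5, against 7.8% of all windows. A match of letters is a description of the window and not a site shown to be bound.

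**Figure D1:**
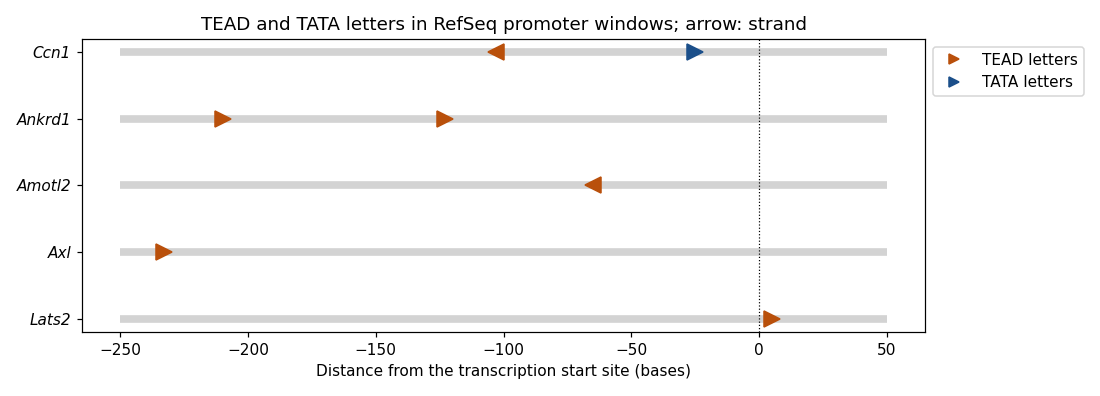
Position of the TEAD letters (orange) and TATA letters (blue) in the promoter windows of 5 members, in bases from the transcription start, with the arrow giving the strand. Every row holds at least 1 TEAD match, Ankrd1 holds 2, and Lats2 is drawn with the match of its first start.

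MiR-29b pairs with its targets through its seed, bases 2 to 8, whose match in a transcript reads TGGTGCT. That match was found in the 3′ UTR of Ccn2 once and of Ccn4 at 2 places, and in none of the other 6 members (GENCODE vM21 transcripts, GRCm38), while 13.0% of 21001 genes with a 3′ UTR held it. The miRNA and the 3 sites are shown because the vectors encode miR-29b and these members hold its seed match. Capitals mark the seed and its match.
miR-29b-3p: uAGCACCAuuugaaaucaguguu
Ccn2 site, chr10:24597116-24597145, plus strand: caaaattccccgTGGTGCTagttaattcaa
Ccn4 first site, chr15:66921338-66921367, plus strand: caaggcaaacagTGGTGCTtaagatgtatt
Ccn4 last site, chr15:66921947-66921976, plus strand: tgatagcttattTGGTGCTaagccctacgg
The Ccn2 site lies 53 bases into a 3′ UTR of 1608 bases and is followed by A. The Ccn4 sites lie 1896 and 2505 bases into a 3′ UTR of 3747 bases, and the last of them is followed by A. The longest 3′ UTR of each gene was searched, and the median length over all genes was 953 bases. Both members thus exceed the median, and the share of 13.0% is not matched for length.

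Among CCN genes, TGF-β raised Ccn2, Ccn4 and Ccn5 in empty vector cells and left Ccn1 near its untreated level. Ccn2 (ENSMUSG00000019997, chromosome 10 from 24595442 to 24598683), the connective tissue growth factor, stood at 37.2, 34.9 and 41.0 CPM in the 3 untreated empty vector libraries and at 123.1, 117.8 and 137.5 CPM with TGF-β. The groups did not overlap, and the mean went from 37.7 ± 3.06 to 126.1 ± 10.2 CPM (SD, n = 3). This was a 3.34-fold rise (log2 fold change 1.74, SE 0.095, adjusted p = 1.135e-08). Ccn4 (ENSMUSG00000005124, chromosome 15 from 66891320 to 66923201), a WNT1-inducible CCN protein, had 31.4, 31.0 and 29.2 CPM untreated and 133.5, 141.0 and 146.5 CPM with TGF-β. It rose 4.60-fold (log2 fold change 2.20, SE 0.066, adjusted p = 1.707e-11). Ccn5 (ENSMUSG00000027656, chromosome 2 from 163820861 to 163833146), which lacks the C-terminal domain of the other CCN proteins, was far scarcer, at 48 to 62 counts per untreated library and 239 to 345 with TGF-β. Its CPM were 0.600, 0.774 and 0.767 untreated and 3.38, 4.44 and 3.28 with TGF-β. Ccn5 rose 5.18-fold (log2 fold change 2.37, SE 0.24, adjusted p = 9.136e-06), with an interval from 1.86 to 2.88.

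Ccn1 (ENSMUSG00000028195, chromosome 3 from 145646976 to 145649981), an immediate early CCN gene and a standard readout of YAP, had 259.6, 229.8 and 234.1 CPM in untreated empty vector cells and 245.4, 231.2 and 236.7 CPM with TGF-β. The ranges overlapped, and the log2 fold change was −0.02 (SE 0.085, adjusted p = 0.953). The 95% interval of that difference ran from −0.20 to 0.16. The family has a pair of genes outside the 8 members. Ccn3 (formerly Nov) had 12.4, 9.92 and 10.3 CPM untreated and 6.19, 5.35 and 4.42 CPM with TGF-β, and fell by 1.03 on the log2 scale (SE 0.15, adjusted p = 0.000335). Ccn6 had 36 to 74 counts in treated and 41 to 52 in untreated empty vector libraries, with a log2 fold change of 0.26 (SE 0.38, adjusted p = 0.835). Reads of Ccn2 could include those of Gm15270, and reads of Ccn6 those of Tube1, which overlap them on the opposite strand, since the sources used here do not give the strand setting of the counting.

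The YAP targets outside the CCN family moved by less. Ankrd1 (chromosome 19), which encodes the muscle ankyrin repeat protein CARP, had 110.5, 99.8 and 109.8 CPM untreated and 99.5, 92.2 and 111.4 CPM with TGF-β, a log2 fold change of −0.08 (SE 0.079, adjusted p = 0.725). Amotl2 (chromosome 9 from 102716672 to 102733418), an angiomotin family scaffold that binds YAP and holds it back, had 142.5, 131.2 and 136.8 CPM untreated and 164.3, 145.8 and 173.7 CPM with TGF-β. Each treated library stood above each untreated one, at a log2 fold change of 0.24 (SE 0.072, adjusted p = 0.0718). Axl (chromosome 7 from 25757273 to 25788705), the receptor tyrosine kinase for Gas6, had 437.2, 422.9 and 432.1 CPM untreated and 395.7, 398.6 and 397.8 CPM with TGF-β. Its ranges did not overlap either, at a log2 fold change of −0.12 (SE 0.034, adjusted p = 0.0572). Lats2 (chromosome 14), the kinase that phosphorylates YAP and is itself induced by YAP, had 56.6, 43.1 and 41.1 CPM untreated and 49.9, 53.6 and 55.7 CPM with TGF-β, at 0.18 (SE 0.15, adjusted p = 0.648). Lats2 shares its strand with an overlapping coding entry, Gm49361, so its counts are uncertain.

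In this comparison 3 of 8 members were called, all higher, against a background of 5.88% of genes called in either direction and 3.88% called higher. The CPM ranges of treated and untreated libraries were apart for 4 members upwards and for Axl downwards, as they were for 11.3% and 9.69% of all genes. The median log2 fold change was 0.21 over the members and 0.0023 over all genes tested. Of the genes called, 65.9% were higher, and 53.1% when libraries were scaled by their total counts. The rises of Ccn2, Ccn4 and Ccn5 passed in all 16 alternatives, in which the log2 fold change ranged from 1.63 to 1.80, from 1.96 to 2.23 and from 1.01 to 2.44. The low end for Ccn5 came from the log2(FPKM + 1) scale, which understates the change of a low gene. Axl was called in 6 of 16 alternatives, including edgeR scaled by total counts (−0.15, adjusted p = 0.0132), with DESeq2 size factors (adjusted p = 0.0465) or with counts divided by 4 (adjusted p = 0.025), and limma on FPKM. DESeq2 called 5 members, with Amotl2 (adjusted p = 0.0479) and Axl (adjusted p = 0.0124) added, and Amotl2 was also called by edgeR without empty vector with TGF-β replicate d (0.29, adjusted p = 0.0212).

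**Figure D2:**
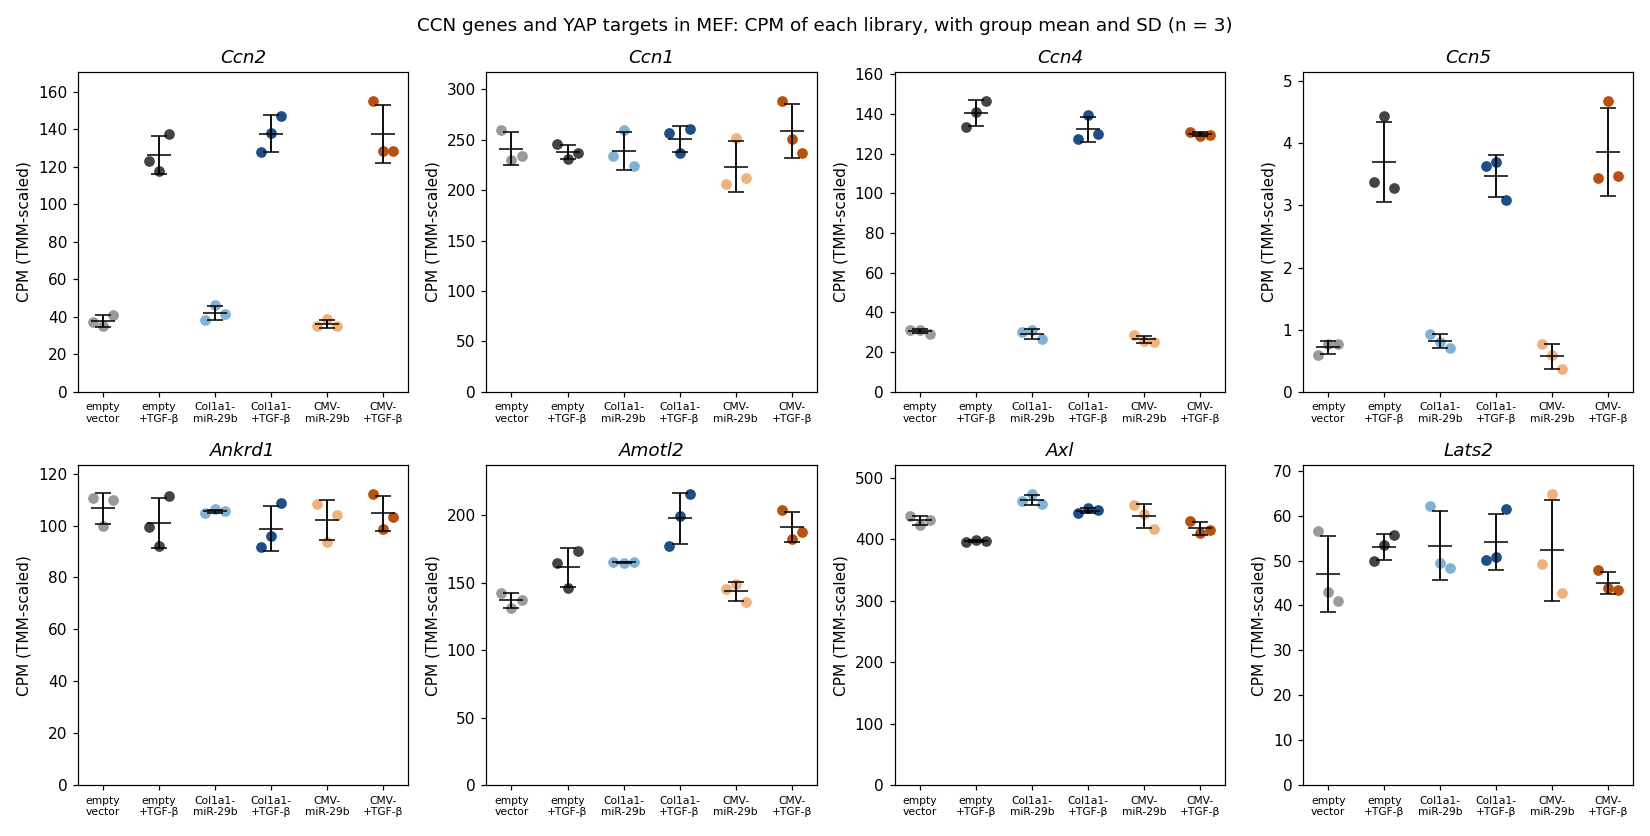
CPM of the 8 members in each of the 18 libraries, by vector and treatment (points), with the group mean and SD (black, n = 3 libraries). Within each vector, treated libraries are above untreated ones for Ccn2, Ccn4, Ccn5 and Amotl2, and the ranges overlap for Ccn1, Ankrd1 and Lats2. Of all genes, 11.3% (empty vector), 11.8% (Col1a1-miR-29b) and 11.1% (CMV-miR-29b) had treated libraries above. The ranges of Axl are apart downwards with the empty vector and Col1a1-miR-29b and overlap with CMV-miR-29b.

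Ccn2, Ccn4 and Ccn5 also rose with TGF-β in cells carrying either miR-29b vector. In Col1a1-miR-29b cells Ccn2 went from 38.4, 46.1 and 41.5 CPM to 127.6, 138.1 and 147.2 CPM. Its log2 fold change there was 1.71 (SE 0.095, adjusted p = 1.921e-08). In CMV-miR-29b cells it went from 35.0, 38.7 and 34.8 CPM to 155.1, 128.4 and 128.5 CPM, a log2 fold change of 1.92 (SE 0.096, adjusted p = 3.761e-09). Ccn2 thus had 34.8 to 46.1 CPM over the 9 untreated libraries and 117.8 to 155.1 CPM over the 9 treated ones. Ccn4 had 25.2 to 31.4 CPM untreated and 127.1 to 146.5 CPM treated over the same libraries. Its log2 fold change was 2.18 (SE 0.066, adjusted p = 1.972e-11) in Col1a1-miR-29b cells and 2.29 (SE 0.067, adjusted p = 9.903e-12) in CMV-miR-29b cells. Ccn5 had 0.365 to 0.936 CPM untreated and 3.08 to 4.68 CPM treated, and its log2 fold change was 2.09 (SE 0.24, adjusted p = 4.295e-05) with Col1a1-miR-29b and 2.75 (SE 0.24, adjusted p = 2.615e-06) with CMV-miR-29b. Ccn3 fell by 0.86 (SE 0.15, adjusted p = 0.00208) and by 0.89 (SE 0.15, adjusted p = 0.00141) on the log2 scale in these cells. The fall of Ccn3 passed under every alternative run in each of the 3 vectors.

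Amotl2 was called with TGF-β in CMV-miR-29b cells. It had 145.5, 149.1 and 135.8 CPM untreated and 203.6, 182.1 and 187.5 CPM with TGF-β there, a 1.33-fold rise (log2 fold change 0.41, SE 0.072, adjusted p = 0.00217). In Col1a1-miR-29b cells Amotl2 stood at 164.9, 164.6 and 165.4 CPM untreated and 177.4, 199.5 and 215.4 CPM treated, at 0.26 (SE 0.072, adjusted p = 0.0573). The rise of Amotl2 in CMV-miR-29b cells was not shown to differ from that in empty vector cells (difference 0.18, 95% interval −0.042 to 0.39). The rise of Amotl2 with TGF-β within Col1a1-miR-29b cells was called by DESeq2 (0.26, adjusted p = 0.0207). It was also called in the fit without Col1a1-miR-29b with TGF-β replicate c (0.33, adjusted p = 0.0155). Ccn1 had 206.1, 252.1 and 212.0 CPM in CMV-miR-29b cells and 288.5, 250.7 and 237.1 CPM with TGF-β, a log2 fold change of 0.21 that was not called (SE 0.085, adjusted p = 0.22). In Col1a1-miR-29b cells Ccn1 was at 0.07 (SE 0.085, adjusted p = 0.821). Ankrd1, Axl and Lats2 were called in neither vector, at −0.10, −0.06 and 0.02 with Col1a1-miR-29b and 0.04, −0.07 and −0.22 with CMV-miR-29b. The members called were 3 of 8 in Col1a1-miR-29b cells, where 4.32% of all genes were called (3.0% higher), and 4 of 8 in CMV-miR-29b cells, where 4.95% were (3.08% higher). Ranges were apart for Ccn2, Ccn4, Ccn5 and Amotl2 upwards with both vectors, and for Axl downwards with Col1a1-miR-29b. Of all genes, 11.8% and 10.2% were so in Col1a1-miR-29b cells, and 11.1% were apart upwards in CMV-miR-29b cells.

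Whether the response to TGF-β differed between vectors was tested for each member as a difference of differences. None was called for either vector (0 of 21161 genes, 0% in both). Before adjustment, 961 genes for Col1a1-miR-29b and 1129 for CMV-miR-29b had a p under 0.05, with 0 of the 8 members among them. DESeq2 called 21 and 19 genes, with 0 members among them. For Ccn2 the response with Col1a1-miR-29b differed from that with the empty vector by −0.03 (95% interval −0.31 to 0.25), and for Ccn4 by −0.02 (95% interval −0.21 to 0.17). With CMV-miR-29b these differences were 0.18 (95% interval −0.10 to 0.46) for Ccn2 and 0.09 (95% interval −0.10 to 0.28) for Ccn4. A difference of 1 log2 unit in either direction is outside all 4 intervals. Ccn5 was less precise, with a difference of −0.28 (95% interval −0.98 to 0.41) with Col1a1-miR-29b and 0.38 (95% interval −0.32 to 1.08) with CMV-miR-29b. The largest of the other differences by size was that of Lats2 with CMV-miR-29b, −0.39 (95% interval −0.84 to 0.056).

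**Figure D3:**
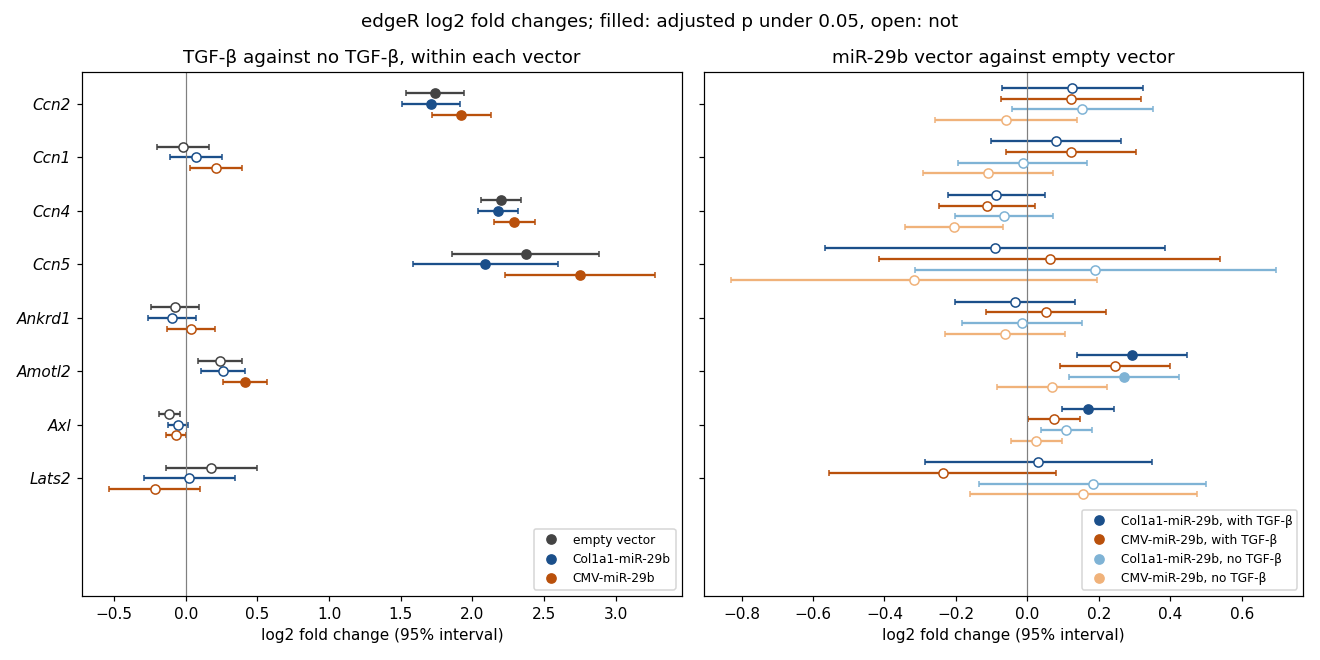
Log2 fold change of each member with its 95% interval, for TGF-β within each vector (left) and for each miR-29b vector against the empty vector (right, on its own scale). Filled points have an adjusted p under 0.05 by edgeR. Ccn2, Ccn4 and Ccn5 are filled on the left under all 3 vectors, and Amotl2 and Axl are the members with filled points on the right.

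The vectors themselves were compared at the same treatment, and both comparisons share the empty vector libraries. With TGF-β, Ccn2 and Ccn4, the members with a seed match, were not lower with Col1a1-miR-29b past the test. Ccn2 was at 127.6, 138.1 and 147.2 CPM against 123.1, 117.8 and 137.5 CPM in empty vector cells, a log2 fold change of 0.13 (SE 0.092, adjusted p = 0.44, 95% interval −0.071 to 0.32). Ccn4 was at 127.1, 139.3 and 130.0 CPM against 133.5, 141.0 and 146.5 CPM, at −0.09 (SE 0.063, adjusted p = 0.438, 95% interval −0.22 to 0.048). With CMV-miR-29b, Ccn2 was at 0.12 (SE 0.092, adjusted p = 0.664) and Ccn4 at −0.11 (SE 0.063, adjusted p = 0.502, 95% interval −0.25 to 0.022). The 130.9, 129.1 and 129.1 CPM of Ccn4 in treated CMV-miR-29b cells were all under the lowest treated empty vector library. Its untreated values, 28.5, 25.7 and 25.2 CPM, were likewise under those of the empty vector (log2 fold change −0.21, SE 0.064, unadjusted p = 0.00591, adjusted p = 0.766). Of all genes tested, 8.01% had such a lower range with TGF-β and 5.15% without it.

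Amotl2 and Axl were the members higher with Col1a1-miR-29b. With TGF-β, Amotl2 reached 177.4, 199.5 and 215.4 CPM against 164.3, 145.8 and 173.7 CPM in empty vector cells, a 1.22-fold difference (log2 fold change 0.29, SE 0.072, adjusted p = 0.0151). Axl reached 442.8, 450.9 and 447.0 CPM against 395.7, 398.6 and 397.8 CPM, a 1.12-fold difference (log2 fold change 0.17, SE 0.034, adjusted p = 0.00452). The ranges of both genes were apart, which 14.8% of all genes showed in this direction. These were 2 of 8 members, where 12.9% of all genes were called, 5.31% as higher. Of the genes called, 41.0% were higher, and 52.6% after scaling by total counts. The call of Amotl2 was lost without empty vector with TGF-β replicate d (0.22, adjusted p = 0.0551), without Col1a1-miR-29b with TGF-β replicate f (0.22, adjusted p = 0.0799) and with the groups compared alone (0.28, adjusted p = 0.109). The call of Axl stood in these 3 fits and in 15 of 16 alternatives in all, and that of Amotl2 in 10 of 16. The fibroblast markers were lower in sum in the same comparison, at 5181 to 5300 CPM with Col1a1-miR-29b against 6768 to 7747 CPM. Of the 9 tested, 6 were called lower and 0 higher, where 1615 of 21161 genes were called lower, and 2 had a positive log2 fold change. The list holds Col1a1, Col1a2 and Col3a1, and the paper reports lower collagen genes with both vectors. The sum is thus not a measure of fibroblast content alone. The part of the markers in these differences was not tested.

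Without TGF-β, Amotl2 had 164.9, 164.6 and 165.4 CPM with Col1a1-miR-29b against 142.5, 131.2 and 136.8 CPM with the empty vector, a log2 fold change of 0.27 (SE 0.072, adjusted p = 0.0384). Axl had 463.2, 473.5 and 456.8 CPM against 437.2, 422.9 and 432.1 CPM, at 0.11 (SE 0.034, adjusted p = 0.069), which was not called. Fibroblast markers summed to 3270 to 3644 CPM with Col1a1-miR-29b against 4201 to 4628 CPM. Of the 9 tested, 2 were called lower, where 784 of 21161 genes were, and the part of the markers was not tested either. Both ranges of Amotl2 and Axl were apart, as were those of 14.9% of all genes. Thus 1 of 8 members was called, against 6.27% of all genes (2.57% higher). Of the genes called, 40.9% were higher, and 51.4% after scaling by total counts. Leaving out any 1 of the 6 libraries of this comparison took the call of Amotl2 away: without the empty vector replicates c, d and e its log2 fold change was 0.29, 0.23 and 0.26 (adjusted p = 0.073, 0.141 and 0.0897), and without Col1a1-miR-29b replicates c, d and f it was 0.26, 0.25 and 0.26 (adjusted p = 0.0875, 0.126 and 0.0942).

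With CMV-miR-29b no member was called against the empty vector. With TGF-β the background was 0.00945%, or 2 genes, and 2 members, Amotl2 and Axl, had an unadjusted p under 0.05, as did 2531 of 21161 genes. Amotl2 was at 203.6, 182.1 and 187.5 CPM, above all 3 empty vector libraries (log2 fold change 0.25, SE 0.072, adjusted p = 0.211), and Axl at 430.3, 409.7 and 414.7 CPM, also above them (0.07, SE 0.034, adjusted p = 0.405), as 7.86% of all genes were. Lats2, at 47.8, 43.8 and 43.4 CPM, lay below them (−0.24, SE 0.15, adjusted p = 0.569). DESeq2 called 294 genes there, with 0 members among them. Without TGF-β the background was 0.00473%, or 1 gene, and 1 member, Ccn4, had an unadjusted p under 0.05, as did 1156 of 21161 genes, while DESeq2 called 37 genes. The differences of Ccn1, Ankrd1 and Lats2 from the empty vector were called with neither vector. Those of Ccn1 lay between −0.11 and 0.12, those of Ankrd1 between −0.06 and 0.05 and those of Lats2 between −0.24 and 0.18, over the 4 comparisons.

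Levels between genes were compared as FPKM, the authors' values scaled for transcript length, in the 16 libraries whose FPKM were used. Ccn1 was the most abundant member, at 90.5 to 128.6 FPKM, followed by Axl at 68.2 to 86.1 FPKM. Untreated Ccn2, at 10.9 to 14.7 FPKM, stood below Ankrd1 and Amotl2 in all 8 untreated libraries. With TGF-β it reached 36.5 to 48.8 FPKM and stood above both in all 8 treated libraries. Ccn4 went from 4.06 to 5.10 FPKM untreated to 20.6 to 22.8 FPKM treated. It was below Lats2 in all 8 untreated libraries and above it in all 8 treated ones. Ccn5 was the scarcest member in either state, at 0.167 to 0.439 FPKM untreated and 1.47 to 2.15 FPKM treated.

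The make-up of the CCN family shifted accordingly. Of the summed FPKM of Ccn1 to Ccn6 in untreated empty vector cells, Ccn1 held 83.7% ± 0.794 (SD, n = 3), Ccn2 9.25% ± 0.878 and Ccn4 3.85% ± 0.215. With TGF-β Ccn1 held 61.6% ± 1.51, Ccn2 23.0% ± 1.37 and Ccn4 13.2% ± 0.649, while the sum went from 127.8 ± 7.08 to 167.2 ± 2.29 FPKM. The share of Ccn2 rose by 13.8 percentage points in empty vector cells and by 13.9 in CMV-miR-29b cells, each with a two-sided exact permutation p = 0.1, the smallest that 3 libraries against 3 allow. In Col1a1-miR-29b cells, with 2 libraries a group, it went from 10.0% to 23.6% (exact permutation p = 0.333, again the smallest possible).

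**Figure D4:**
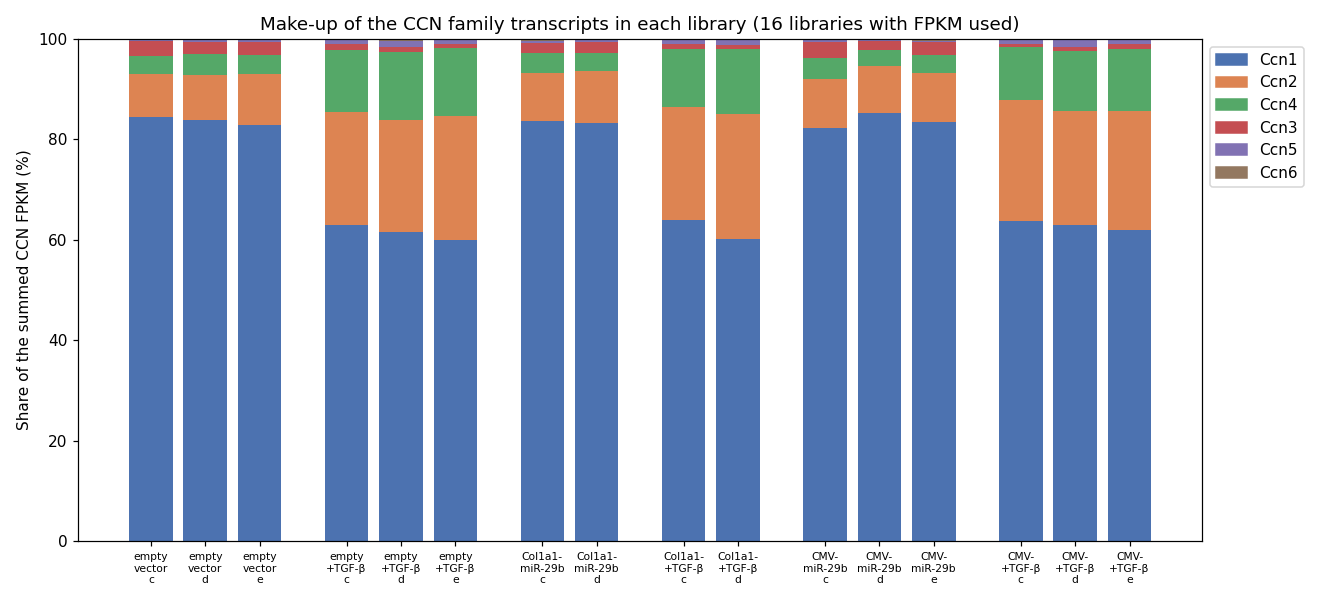
Share of each CCN gene in the summed FPKM of Ccn1 to Ccn6 (%), 1 bar per library, 16 libraries. In all treated libraries the part of Ccn1 is smaller (60.0% to 64.0%) and those of Ccn2 and Ccn4 are larger than in the untreated ones.

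The members also differed in how much they varied between libraries. The SD of log2 CPM within groups was 0.034 for Axl, smaller than in all but 0.5% of the genes tested, and 0.078 for Ccn4. It was 0.20 for Lats2 and 0.28 for Ccn5, against a median of 0.25 over all genes. For Ccn1, Ankrd1 and Lats2 the SD over all 18 libraries (0.12, 0.094 and 0.20) was about that within groups (0.11, 0.10 and 0.20). For Ccn2, Ccn4 and Ccn5 it was 0.93, 1.15 and 1.26.

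The genes whose log2 CPM followed each member most closely over the 18 libraries were sought among the 13912 genes that averaged 1 CPM or more. All 18 libraries carry the same treatment contrast, so these correlations describe shared patterns and were not tested. Ccn2 was close to Ltbp2 (r = 0.991) and Pmepa1 (r = 0.989), and Ccn4 was nearest to Cthrc1, Timp3 (both r = 0.996) and Tnnt2 (r = 0.994). Ccn5 was nearest to Acta2 (r = 0.985), Pcolce2 (r = 0.982) and Cthrc1 (r = 0.981). Amotl2 was nearest to Smad7 (r = 0.898), which encodes an inhibitory Smad, followed by Ubqln2 (r = 0.896) and Map7d1 (r = 0.890). Axl was nearest to Apol9a (r = 0.920), Kat2a (r = 0.917) and Cox15 (r = 0.907). For Ccn1 the nearest gene was Mark4 (r = 0.825), for Ankrd1 Gm49668 (r = 0.757) and for Lats2 Gm42669 (r = 0.729). The order of levels over the groups was in part unresolved. Axl was lowest in empty vector cells with TGF-β, whose range lay apart from the next group, and highest in untreated Col1a1-miR-29b cells, also apart, while the 4 groups between overlapped their neighbours.

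The rest of the pathway was read from 3 lists: 31 genes of the Hippo core with its regulators and the TEAD factors, 16 other YAP targets and 12 receptors and ligands of CCN proteins and Axl. With TGF-β in empty vector cells, 5 of 31 Hippo core genes were higher past the test and 0 lower, with a median log2 fold change of 0.040. Beside this count and those of the other lists stand the 5.88% of all genes called and the 3.88% called higher. The lists were chosen with earlier results of these data known, so this contrast is a description and not a test. Frmd6, an upstream activator of the Hippo kinases, rose by 0.60 (SE 0.072, adjusted p = 5.592e-05), Map4k4, a kinase upstream of LATS, by 0.40 (SE 0.06, adjusted p = 0.000503) and Wwc2, a KIBRA relative, by 0.25 (SE 0.045, adjusted p = 0.00279). The call of Wwc2 was lost with the groups compared alone (adjusted p = 0.0568). Tead1 passed at 1.79 (SE 0.45, adjusted p = 0.0271), but on 1 library: it had 139.0, 26.1 and 33.2 CPM with TGF-β and 18.6, 19.8 and 19.0 CPM untreated. Without empty vector with TGF-β replicate c its log2 fold change was 0.63 (adjusted p = 0.14), and its call was also lost without empty vector replicate c, d or e (adjusted p = 0.0947, 0.0881 and 0.0972). The Hippo core count was 3 without empty vector replicate e and 2 with the groups compared alone. Yap1 and Wwtr1, which encode YAP and TAZ, were not called. The ranges of Wwtr1 were still apart in empty vector cells, at 146, 124 and 135 CPM untreated and 166, 148 and 161 CPM with TGF-β. Of all genes, 11.3% had ranges apart in this direction, while the ranges of Yap1 overlapped. Mob1a and Limd1 were not called either, but they varied widely within groups. In empty vector cells Mob1a had 107.6, 329.5 and 309.2 CPM untreated and 60.2, 320.1 and 59.8 CPM with TGF-β. Limd1 had 82.2, 42.8 and 46.1 CPM untreated, so the lack of a call for these genes does not show a lack of change.

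Of the other YAP targets, 3 of 14 tested were higher with TGF-β and 0 lower, with a median of 0.12. They were Nt5e, which encodes CD73 (1.76, SE 0.28, adjusted p = 0.000907), the transcription factor Foxf2 (0.64, SE 0.13, adjusted p = 0.0048) and the kinase Nuak2 (0.58, SE 0.078, adjusted p = 0.000193). Of the receptors and ligands, 5 of 11 tested were higher and 0 lower, with a median of 0.21. The integrin chains Itgb3 (1.81, SE 0.30, adjusted p = 0.0012), Itgb5 (0.82, SE 0.059, adjusted p = 2.021e-07) and Itga5 (0.40, SE 0.044, adjusted p = 1.873e-05) rose, as did Lrp1, a scavenger receptor that binds Ccn2 (0.79, SE 0.089, adjusted p = 2.958e-05). Itgb3 was low, at 0.612 to 1.11 CPM untreated and 2.36 to 3.22 CPM with TGF-β in empty vector cells.

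With TGF-β, Col1a1-miR-29b cells had 2 of 31 Hippo core genes higher and 9 lower than empty vector cells, with a median of −0.082 against 0.019 over all genes. Of all 21161 genes, 12.9% were called, 1123 higher and 1615 lower. Tead1 was at −1.70 (SE 0.45, adjusted p = 0.0221), again through the same empty vector library, without which it was at −0.55 (adjusted p = 0.136). It was also lost without Col1a1-miR-29b with TGF-β replicates c, d or f (adjusted p = 0.0619, 0.0819 and 0.051). The protocadherin Dchs1 was at 0.64 (SE 0.16, adjusted p = 0.0186), and its call was lost without empty vector with TGF-β replicates c or e (adjusted p = 0.0931 and 0.0745) or Col1a1-miR-29b with TGF-β replicate c (adjusted p = 0.0821). Without these same 3 libraries in turn the Hippo core count of 11 was 6, 3 and 5, and it was 6 with the groups compared alone and 4 and 3 by limma on log2(FPKM + 1) and log2(FPKM + 0.1). Of the other YAP targets 1 was higher and 3 lower, led by Asap1 (−0.50, SE 0.093, adjusted p = 0.00303) and Myof (−0.41, SE 0.10, adjusted p = 0.0145). Myof lost its call without empty vector with TGF-β replicate e (adjusted p = 0.0884) or Col1a1-miR-29b with TGF-β replicate c (adjusted p = 0.0689), and the count of 4 was 1 without either of these, 2 without empty vector with TGF-β replicate c and 2 without Col1a1-miR-29b with TGF-β replicate d or f. It was 2 with the groups compared alone and 1 by limma on either FPKM scale. Of the receptors 0 were higher and 2 lower, Lrp1 (−0.34, SE 0.088, adjusted p = 0.0196) and Lrp6, the WNT co-receptor (−0.32, SE 0.055, adjusted p = 0.00225). Lrp1 lost its call without empty vector with TGF-β replicate e (adjusted p = 0.105) or Col1a1-miR-29b with TGF-β replicates c or f (adjusted p = 0.0589 and 0.0741), and the count of 2 was 1 without any of these and 4 without empty vector with TGF-β replicate d. DESeq2 called 6 receptors and ligands, 2 of them higher, and counts divided by 4 gave 4, 1 of them higher. With CMV-miR-29b and TGF-β, 0 genes of the 3 lists were called by edgeR, with 8 of 31, 1 of 14 and 3 of 11 at an unadjusted p under 0.05, against 2531 of 21161 over all genes.

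**Figure D5:**
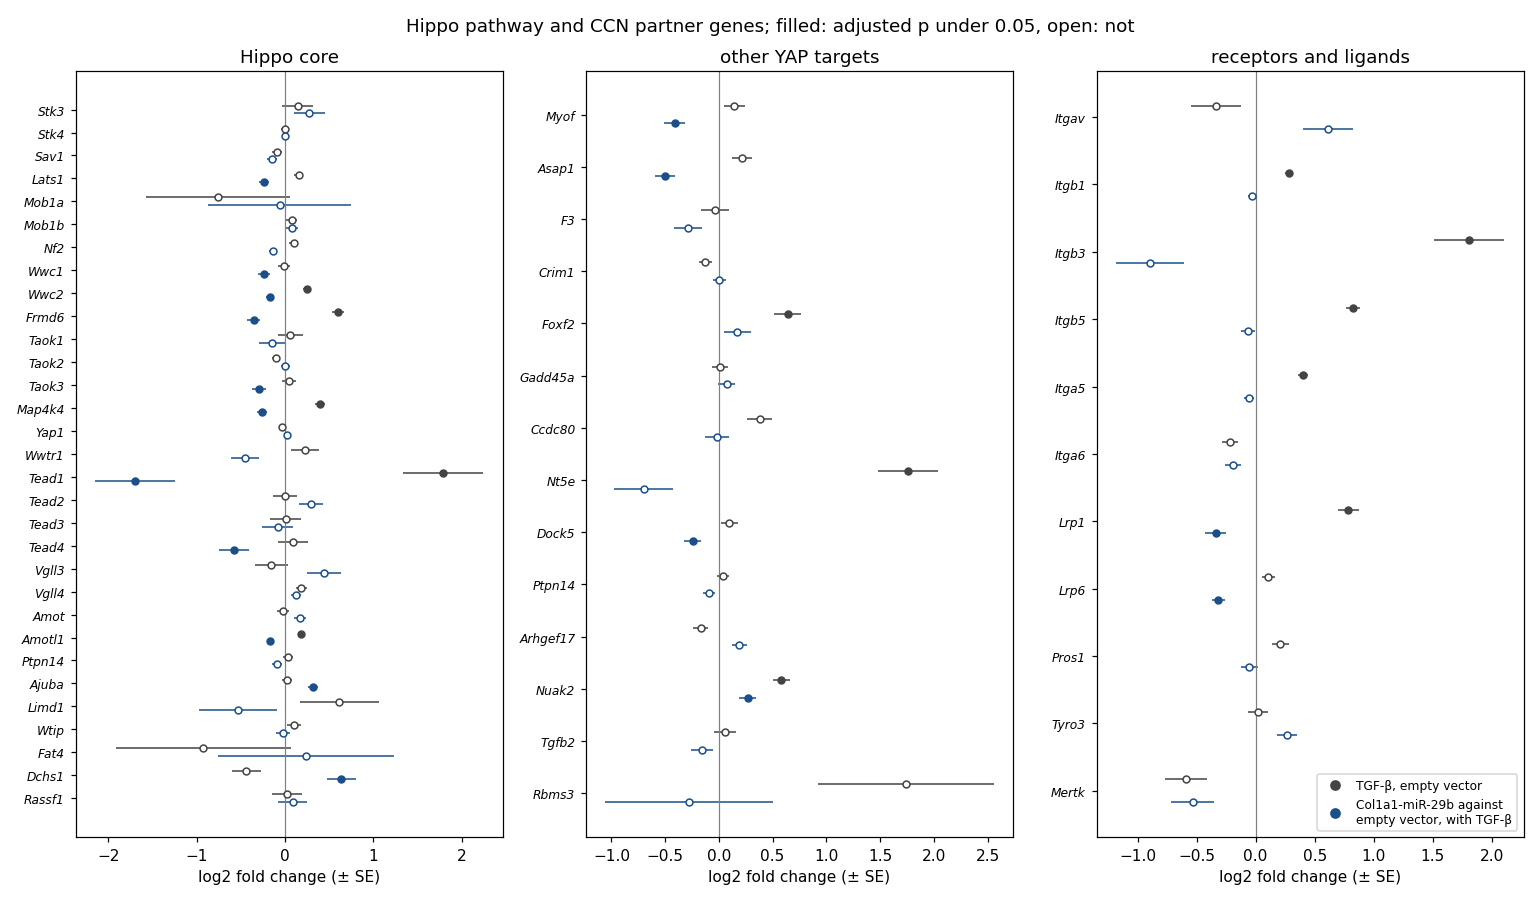
Log2 fold change (± SE) of the tested genes of the Hippo core, of other YAP targets and of receptors and ligands, for TGF-β in empty vector cells (black) and for Col1a1-miR-29b against the empty vector with TGF-β (blue). Filled points have an adjusted p under 0.05 by edgeR. Most points lie within 1 unit of 0, and the wide bars of Tead1 reflect 1 library at 139.0 CPM.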

How the data were processed

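Poly(A) RNA of MEF was sequenced as 18 libraries in 6 groups. The authors trimmed reads with cutadapt, checked them with FastQC, mapped them with HISAT2 and assembled them with StringTie. The deposited table gives whole-number counts per gene, not normalized, and the authors' FPKM values, in which a count of 0 is listed as 0.0001. The labels name mm9, while the paper's methods name a mouse genome release of Ensembl for the mapping. Start and end of 52506 of the 55450 genes match GENCODE vM21 exactly, so coordinates are given in GRCm38. How counts were taken is not given in the sources used here. Among counts from 1 to 40, 33.8% to 36.7% per library were multiples of 4, so an alternative divided counts by 4. In 2 columns, the third of each Col1a1-miR-29b group, the letter f is in no sample title. They were used as libraries of their group, for counts only, and their 2 FPKM columns were not used. Chi-square per gene between replicates was 40.3 to 64.5, so no library was a copy of another.

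Tests on the counts used edgeR 4.0.16 (R 4.3.3), with genes kept by filterByExpr (TMM, 1 mean per group over all 18 libraries, quasi-likelihood F tests, Benjamini-Hochberg adjustment over 21161 genes, threshold 0.05). Standard errors came from the F statistic. The fits were tested on simulated counts. Alternatives were DESeq2 1.42.0, its size factors in edgeR, scaling by total counts, a filter of at least 1 count, the groups compared alone, the replicate letter as a block, counts divided by 4, limma 3.58.1 on log2(FPKM + 1) and log2(FPKM + 0.1), and leaving out each library. A fit without both libraries of no title letter was added after seeing the data. The members and lists were chosen with earlier results of these data known. Named genes were the members, Ccn3 and Ccn6, the 3 genes most like each member (1 of them is not reported here), and from each list up to 4 called genes with the largest change for TGF-β in empty vector cells and up to 2 for each vector with TGF-β. Promoter and miRNA sequences are from RefSeq (GRCm38.p6).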

Additional observations from a re-analysis of the deposited data

How the results depend on the processing

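The rises of Ccn2, Ccn4 and Ccn5 with TGF-β kept their direction and passed the test in all 16 alternatives under each vector, as did that of Amotl2 in CMV-miR-29b cells. Over the members, the comparisons and the alternatives that left out 1 library, 484 results were as reported, 8 lost and 2 gained a call and 34 uncalled differences changed sign. Over the other alternatives these numbers were 671, 10, 9 and 30. For TGF-β in empty vector cells the Hippo core count of 5 was 2 with the groups compared alone. For Col1a1-miR-29b with TGF-β the Hippo core count of 11 was 6 with the groups compared alone, 3 with the replicate block and 4 and 3 with limma on log2(FPKM + 1) and log2(FPKM + 0.1). The count of 4 other YAP targets was 2 with the groups compared alone and with the filter of at least 1 count, and 1 with the block and on both FPKM scales. The count of 2 receptors and ligands was 6 by DESeq2 (2 higher), 4 with counts divided by 4 (1 higher), and 1 with the block and on log2(FPKM + 0.1). Of the listed genes of the pathway, 48 results lost a call when 1 library was left out and 65 did under the other alternatives. Counts below are given first as genes called.

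DESeq2 called 294 genes for CMV-miR-29b with TGF-β, 2336 for Col1a1-miR-29b and 37 for CMV-miR-29b without TGF-β, and, for the differences in response, 21 with the Col1a1 promoter and 19 with that of CMV. It called 5 members for TGF-β in empty vector cells. Axl was called there under 6 of the 16 alternatives, among them edgeR with DESeq2 size factors, with total counts and with counts divided by 4. Scaling by total counts called 2 members, Amotl2 and Axl, for Col1a1-miR-29b without TGF-β. It changed the sign of uncalled differences for Lats2 in the TGF-β response of Col1a1-miR-29b cells (−0.0032), of Ankrd1 for Col1a1-miR-29b with TGF-β (0.0038) and of Ccn1 (0.014) and Ankrd1 (0.0115) without TGF-β. The filter of at least 1 count gave 4 genes for CMV-miR-29b with TGF-β and 0 members for Col1a1-miR-29b without TGF-β (Amotl2, adjusted p = 0.0592). Counts divided by 4 gave 1 gene for CMV-miR-29b with TGF-β and 0 without it. With the groups compared alone, fewer libraries estimate the spread. The counts were 618 for TGF-β in empty vector cells, 527 in CMV-miR-29b cells, 1072 and 7 for Col1a1-miR-29b and CMV-miR-29b with TGF-β, 782 and 10 without it, and 1 and 1 for the differences in response. Col1a1-miR-29b with TGF-β then had 1 member called, Axl.

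The letters c, d and e are shared by the groups, but nothing states that they mark a shared experiment, and over 10022 genes same-letter libraries correlated by 0.013 on average (36 pairs, −0.122 to 0.168), against −0.007 over 70 pairs of different letters. With the letter as a replicate block, which leaves out the pair of libraries without a title letter, TGF-β in Col1a1-miR-29b cells gave 394 genes, Col1a1-miR-29b with TGF-β 1152 genes and 0 members (Amotl2 0.22, adjusted p = 0.14, and Axl 0.16, adjusted p = 0.0582), Col1a1-miR-29b without TGF-β 161 genes and 0 members, and its difference in response 2 genes. The block reversed uncalled differences of Ccn1 (−0.0069) and Lats2 (−0.1453) in the TGF-β response of Col1a1-miR-29b cells, of Lats2 for Col1a1-miR-29b with TGF-β (−0.1334), of Ankrd1 without it (0.0091) and of Amotl2 in the difference in response (−0.0426).

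Without both libraries of no title letter and with limma on FPKM, which lacks these libraries too, the Col1a1-miR-29b groups have 2 libraries each. TGF-β in these cells gave 453 genes without the pair, 499 on log2(FPKM + 1) and 465 on log2(FPKM + 0.1). Col1a1-miR-29b with TGF-β gave 1659, 1752 and 1632 genes, Col1a1-miR-29b without TGF-β 397, 481 and 390, and its difference in response 3 each. For Col1a1-miR-29b against the empty vector, 0 members were called without TGF-β under all 3, and with TGF-β 1 member, Axl, without the pair and on log2(FPKM + 0.1). Uncalled differences that changed sign were, in the same order, Ccn1 (−0.0059, −0.0268 and −0.0271) and Lats2 (−0.1486, −0.1414 and −0.1587) in the TGF-β response of Col1a1-miR-29b cells, Lats2 for Col1a1-miR-29b with TGF-β (−0.0756, −0.0287 and −0.0324), Ccn1 without TGF-β (0.0276, 0.0595 and 0.06) and Amotl2 in the difference in response (−0.0442, −0.0321 and −0.0347). On both FPKM scales Ccn5 changed sign for Col1a1-miR-29b with TGF-β (0.0195 and 0.0339), and Ccn4 (0.0246 and 0.029) and Ankrd1 (0.014 and 0.0145) did without it. The cause of these changes was not tested beyond the number of libraries.

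Leaving out 1 library gave 725 to 1428 genes for TGF-β in empty vector cells (lowest without empty vector with TGF-β replicate e), 1291 to 3182 for Col1a1-miR-29b with TGF-β (1291 without empty vector with TGF-β replicate e, 1666 without its replicate c, and 1498 and 1810 without Col1a1-miR-29b with TGF-β replicates c and f), and 468 to 1043 for Col1a1-miR-29b without TGF-β (468 and 567 without empty vector replicates c and d, and 823, 482 and 640 without Col1a1-miR-29b replicates c, d and f). For CMV-miR-29b it gave 3 to 160 with TGF-β (160 without empty vector with TGF-β replicate d) and 1 to 5 without it, and for the differences in response 0 to 3 and 0 to 2. The members called were 1 to 2 for Col1a1-miR-29b with TGF-β and 0 in each case without it. Uncalled differences whose range crossed 0 were those of Ccn1 for TGF-β in empty vector cells (−0.0635 to 0.0268), Lats2 in Col1a1-miR-29b cells (−0.0766 to 0.1422) and Ankrd1 in CMV-miR-29b cells (−0.0278 to 0.081). For Col1a1-miR-29b with TGF-β they were Ccn5 (−0.1664 to 0.0558), Ankrd1 (−0.1137 to 0.0464) and Lats2 (−0.0768 to 0.0808), and without it Ccn1 (−0.0969 to 0.033) and Ankrd1 (−0.0716 to 8e-04). For CMV-miR-29b they were Ccn5 (−0.0946 to 0.2077) and Ankrd1 (−0.016 to 0.1302) with TGF-β and Axl (−0.0193 to 0.0577) and Lats2 (−0.0297 to 0.31) without it. In the difference in response of Col1a1-miR-29b they were Ccn2 (−0.0913 to 0.0572), Ccn4 (−0.0909 to 0.0391), Ankrd1 (−0.0859 to 0.0725) and Amotl2 (−0.0393 to 0.1034). Depth limits Ccn5 most, at 28 to 68 counts per untreated library.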
